A study of Mus musculus with 6 samples.

Results

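The genes that write and erase DNA methylation were read in CD8 T cells of OT-I mice, with the genotype labels CD73 KO or WT. They were chosen by name: the maintenance methyltransferase Dnmt1, its guide Uhrf1, the de novo methyltransferases Dnmt3a and Dnmt3b, and the methylcytosine dioxygenases Tet1, Tet2 and Tet3. All 7 had 1 row each among the 49671 genes of the count table, and all 7 were among the 12242 genes with enough counts to be tested. OT-I cells carry a transgenic receptor for the ovalbumin peptide SIINFEKL. In both groups CD8 T cells from spleens of OT-I mice received the peptide at 10 ng/mL each day for 5 days. The cytokines IL-7 and IL-15 were given at 5 ng/mL each. For the replating of the cells, 48 hours is given in both groups. Live cells were sorted for RNA. This culture is meant to drive T cells into exhaustion, and all 6 samples analysed here went through it, so no level below can be set against resting cells. Each genotype had 3 libraries, CD73 KO and WT, numbered as in the labels. CD73, encoded by Nt5e, makes extracellular adenosine from AMP. Neither the age and sex of the mice nor the design of the CD73 allele is given in the sources used here. The same holds for whether each library stands for its own animal. The p-values therefore reflect only how far these 6 samples scatter, and that scatter may be technical.

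DNA methylation marks the cytosine of CpG pairs. When DNA is copied, the new strand lacks the mark. UHRF1 binds the half-marked site and brings DNMT1, which restores it, so both are most needed in dividing cells. DNMT3A and DNMT3B place new marks. TET enzymes oxidise methylcytosine, after which the mark is lost by base excision or by dilution through division. In CD8 T cells DNMT3A is known for silencing memory genes during effector differentiation and exhaustion, and loss of TET2 is known to favour memory-like cells.

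Dnmt1 and Uhrf1 share a sequence feature near their starts that was not found in the windows of the other 5 genes. The motif TTTCGCGC or TTTGGCGC, the consensus of the E2F factors that drive S phase genes, was searched on both strands in windows from 250 bases before to 50 after each RefSeq start (GRCm38.p6). It was found for 2 of the 7 genes, for 7 of the 21 genes of a DNA replication list that had a window, for 1.9% of the tested genes with a window and for 0.929% of all 27025 genes with a window. The motif was chosen after these sequences were seen, a match is a description of letters and not a bound site, and the counts do not tell which start was used. Matches of Dnmt1 (chr9:20952824-20952853, minus strand) and Uhrf1 (chr17:56304117-56304146, plus strand) are printed with those of Mcm5 (chr8:75109345-75109374, plus strand) and Mcm6 (chr1:128359797-128359826, minus strand), subunits of the replicative helicase, and Lig1 (chr7:13278841-13278870, plus strand), the ligase that joins new DNA fragments. They show the letters that the maintenance pair has in common with these replication genes, which were picked after the sequences were seen. In Mcm5 and Mcm6 the printed match overlaps another one. Each line is 30 bases on the strand of its gene, with the motif in capitals.
Dnmt1: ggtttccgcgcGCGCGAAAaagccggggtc
Uhrf1: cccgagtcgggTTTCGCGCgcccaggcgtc
Mcm5: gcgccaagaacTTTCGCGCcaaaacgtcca
Mcm6: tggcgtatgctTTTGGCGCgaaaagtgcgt
Lig1: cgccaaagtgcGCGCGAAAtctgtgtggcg
The windows of the 7 genes differed in the CpG pairs that methylation acts on. The Tet2 window held 57 CpG pairs and the Dnmt3a windows 18 to 47, against a median of 7 over all windows. Dnmt1 had 3 windows with 33, 12 and 2 CpG pairs.

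The targeted gene and the identity of the cells were read first. For CD73 KO the Nt5e counts were 69, 128 and 88, and for WT replicates 1, 2 and 3 they were 290, 49 and 263. In CPM, counts scaled to the size of each library with TMM factors, the library labelled WT replicate 2 had 5.21, between the lowest (3.67) and the highest (8.46) CD73 KO value. The other 2 WT libraries had 22.5 and 37.4 CPM. Nt5e thus goes against the genotype label of that library, which is in doubt by this gene alone. The library was kept with WT because its label says so. Its Gzmb, described below, was 4021 CPM, against 2157 and 2382 CPM in the other WT libraries and 1408 to 1546 CPM in CD73 KO. Its Tcf7 was 133 CPM, against 210 and 229 CPM and 279 to 374 CPM. Both genes were picked after their values were seen, and whether the label is right was not tested. The log2 fold change of Nt5e, CD73 KO against WT, was -1.67 ± 0.72 (SE), and edgeR's adjusted p was 0.534. Library totals ran from 6934150 to 19382950 counts, and a floor of 3 counts corresponds to 0.159 to 0.427 CPM. T cell genes were high, with Cd8a at 969 ± 162 CPM (CD73 KO) and 805 ± 92.9 CPM (WT; SD, n = 3), whereas 8 of 12 myeloid markers, Lyz2 and Csf1r among them, were listed at 0 in all 6 libraries. Cd4 had 0 to 0.711 CPM. Of 8 B cell markers, 3 had enough counts to be tested, all 3 with a log2 fold change above 0 (median 0.66). Another 4 had at most 3 counts in every library, 2 of these at 0 throughout. The sum of the 8 was 777 to 866 CPM (CD73 KO) and 709 to 782 CPM (WT), so it comes from few genes. Summed markers of myeloid cells were at 10.1 to 12.8 and 8.94 to 9.71 CPM. Those of erythroid and stromal cells, 5 of 7 at 0 throughout, were at 66.8 to 104 and 46.5 to 63.3 CPM. Both sums were higher in CD73 KO without overlap, as was the sum of 8 T cell markers (4572 to 4959 against 4315 to 4496 CPM). The part of such cells in the results was not tested.

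None of the 7 genes differed between genotypes by the test. By edgeR's quasi-likelihood F-test at an adjusted p under 0.05, 0 of the 7 were called, against 0.0572% of all tested genes (0.0408% higher and 0.0163% lower in CD73 KO), and their adjusted p ran from 0.522 to 0.991. At an unadjusted p under 0.05 it was again 0 of 7, against 9.64% of all tested genes (5.75% higher and 3.89% lower). DESeq2 and limma-voom also called 0 of 7 after adjustment, with 0 and 1 of 7 at an unadjusted p under 0.05. CD73 KO and WT libraries overlapped for all 7, so that 0 of 7 were without overlap, against 15.2% of tested genes (7.56% higher and 7.61% lower). The median log2 fold change was -0.06 over the 7 genes and 0.01 over all tested genes, and the median size of the change, regardless of sign, was 0.12 and 0.15. Without the library labelled WT replicate 2, whose label is in doubt, log2 fold changes were -0.044 for Dnmt1, -0.07 for Uhrf1, -0.21 for Dnmt3a, -0.27 for Dnmt3b, -0.20 for Tet1, 0.20 for Tet2 and -0.033 for Tet3, and 0 of 7 were called.

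**Figure D1:**
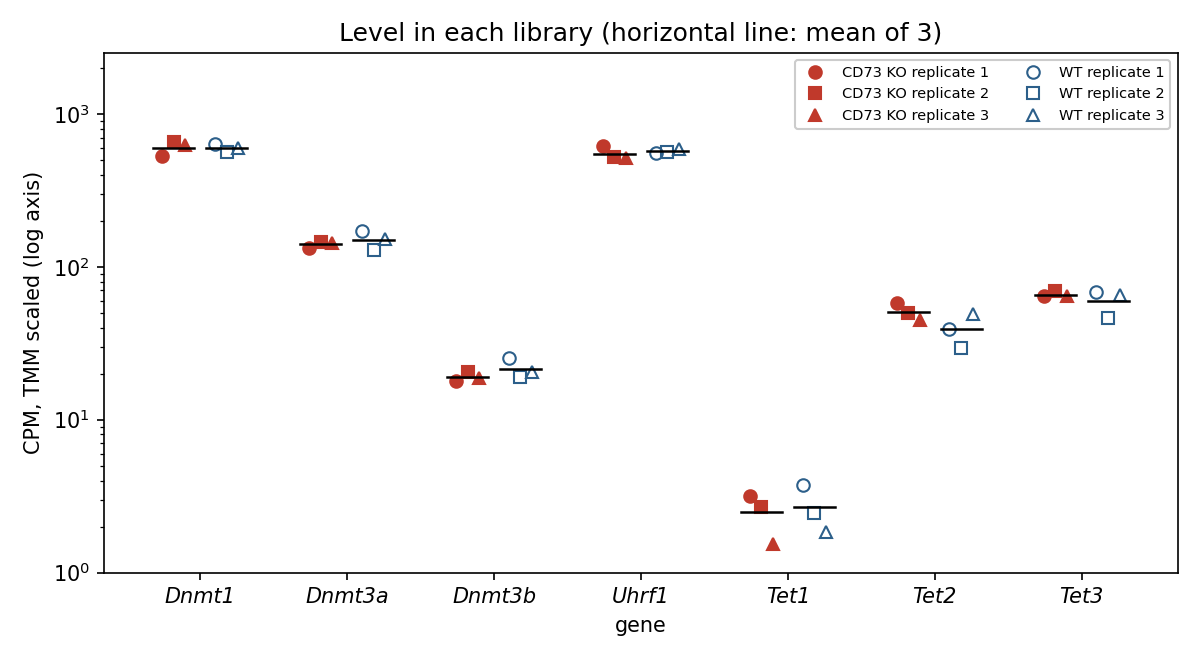
Level of each gene in CPM on a log axis, with filled red symbols for the 3 CD73 KO libraries, open blue symbols for the 3 WT libraries, and a horizontal line at each mean of 3. The 2 groups overlap for every gene, and the library labelled WT replicate 2 (open square) is lowest for Tet2 (29.6 CPM), Tet3 (46.1 CPM) and Dnmt3a (129 CPM).

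Dnmt1, which copies methylation onto new DNA, had the smallest difference of the 7 between genotypes. Its gene lies at chr9:20907209-20959888 (mm10, ENSMUSG00000004099), on the chromosome that also carries Nt5e. CD73 KO replicates 1, 2 and 3 had 527, 656 and 622 CPM, and WT replicates 1, 2 and 3 had 639, 563 and 597 CPM. Both the highest and the lowest library were CD73 KO. Mean levels were 602 ± 66.9 CPM for CD73 KO against 599.5 ± 38.0 CPM for WT (SD, n = 3). This is a log2 fold change of 0.01 ± 0.11 (SE, edgeR's adjusted p = 0.991), with a 95% interval that ran from 0.847-fold to 1.19-fold. Its sign turned with DESeq2, with limma-voom and without CD73 KO replicate 2, CD73 KO replicate 3 or the library labelled WT replicate 2 (-0.061, -0.020 and -0.044).

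Uhrf1, the reader of half-methylated DNA (chr17:56303321-56323486, ENSMUSG00000001228), was as narrow. CD73 KO replicates 1 to 3 had 612, 519 and 512 CPM, against 558, 561 and 591 CPM in WT replicates 1 to 3. All 3 WT values fell inside the CD73 KO range. Its log2 fold change was -0.06 ± 0.10 (SE, edgeR's adjusted p = 0.882), with a 95% interval from 0.819-fold to 1.13-fold. Over all 6 libraries the highest Dnmt1 value was 1.24 times the lowest, and Uhrf1 varied less. For CD73 KO replicate 1, for example, the exact 95% Poisson interval of Dnmt1 was 517 to 538 CPM.

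The maintenance pair did not rise and fall together. CD73 KO replicate 1 had the lowest Dnmt1 and the highest Uhrf1 of the 6 libraries, at -0.18 and 0.13 from each gene's mean on the log2 scale. CD73 KO replicate 2 had the highest Dnmt1, at 0.13 from its mean, with Uhrf1 at -0.10. On the measure of likeness used here, the root mean square difference of log2 CPM centred on each gene's mean over the 6 libraries, Dnmt1 and Uhrf1 were 0.19 apart, and 48.1% of 9332 other genes lay nearer to Dnmt1 than Uhrf1 did. The genes nearest to Dnmt1 were Stap1, Tsg101 and Wbp4 (0.02 to 0.04), and those nearest to Uhrf1 were Hdac7, Ccdc71l and Tob2 (all 0.03). With 6 libraries and so many candidates, close profiles arise easily, so these names only describe the samples.

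Dnmt3a, the main de novo enzyme of T cells (chr12:3806007-3914443, ENSMUSG00000020661), was at 133, 144 and 144 CPM for CD73 KO and at 171, 129 and 152 CPM for WT. WT held both the highest and the lowest value, and the 3 CD73 KO libraries lay between them. A log2 fold change of -0.10 ± 0.12 (SE, edgeR's adjusted p = 0.801) was fitted, with a 95% interval from 0.774-fold to 1.12-fold. Dnmt3b, the other de novo enzyme (chr2:153649450-153687730, ENSMUSG00000027478), was at 17.8, 20.6 and 18.7 CPM for CD73 KO and at 25.2, 19.04 and 20.5 CPM for WT. Its highest library was WT replicate 1, and the other 5 lay between 17.8 and 20.6 CPM. Its log2 fold change was -0.19 ± 0.16 (SE, edgeR's adjusted p = 0.720), with a 95% interval from 0.692-fold to 1.12-fold.

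Dnmt3a and Dnmt3b had much the same profile over the 6 libraries. WT replicate 1 was highest for both, at 0.24 and 0.32 above their means on the log2 scale, and CD73 KO replicate 1 and the library labelled WT replicate 2 were below the mean for both. Their root mean square difference was 0.07, and only 0.0857% of the 9332 other genes lay nearer to Dnmt3a than Dnmt3b did. Dnmt1 was also near, at 0.099 from Dnmt3a and 0.12 from Dnmt3b, with 1.06% and 2.60% of the other genes nearer. Dhx35, Cep250 and Ppfia1 were nearest to Dnmt3a (0.03 to 0.05), and Ppfia1, Gstp-ps and Adam9 to Dnmt3b (0.05). No test was made of this likeness. Because WT replicate 1 stood high for both, their log2 fold changes went to -0.0056 for Dnmt3a and -0.057 for Dnmt3b without it.

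**Figure D2:**
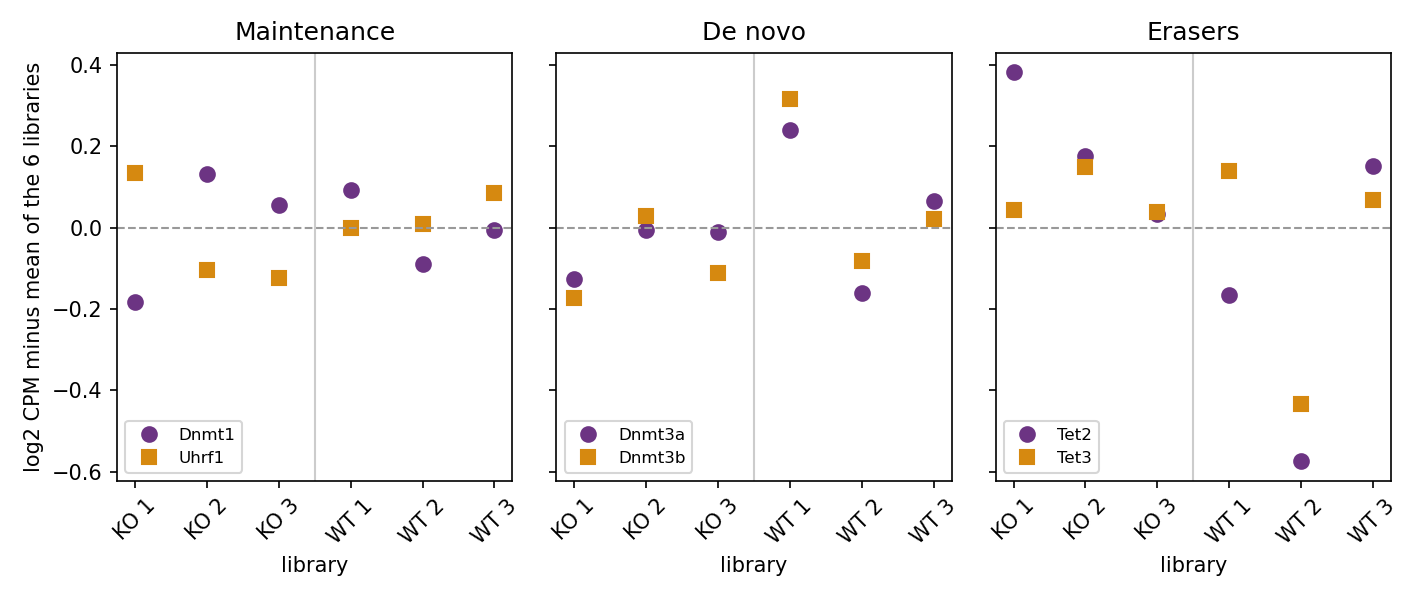
Log2 CPM of each gene minus its mean over the 6 libraries, in 3 panels for the maintenance pair, the de novo pair and Tet2 with Tet3. A vertical line parts CD73 KO (KO) from WT libraries. Dnmt1 and Uhrf1 lie on opposite sides of their means in CD73 KO replicates 1, 2 and 3, Dnmt3a and Dnmt3b lie close together, and Tet2 and Tet3 are lowest in the library labelled WT replicate 2, at -0.58 and -0.43.

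Tet2, an eraser whose loss favours memory-like CD8 T cells (chr3:133463679-133545139, ENSMUSG00000040943), had the largest difference of the 7. CD73 KO replicates 1, 2 and 3 had 57.5, 49.8 and 45.2 CPM, and WT replicates 1, 2 and 3 had 39.3, 29.6 and 49.1 CPM. WT replicate 3 lay among the CD73 KO libraries, and the other 2 WT libraries lay below all of them. The lower of these, at 29.6 CPM, is the library whose WT label Nt5e goes against. Mean levels were 50.9 ± 6.23 CPM for CD73 KO against 39.3 ± 9.74 CPM for WT (SD, n = 3). This is a log2 fold change of 0.38 ± 0.18 (SE), which did not pass the test (edgeR's unadjusted p = 0.0560, adjusted p = 0.522). The 95% interval ran from 0.992-fold to 1.70-fold, so no difference of Tet2 was detectable with 3 libraries a group, and a size up to its upper end is not excluded. Among tested genes, 15.5% had a change of larger size.

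The difference of Tet2 varied with the library left out. Without the library labelled WT replicate 2, whose 278 Tet2 counts give an exact 95% Poisson interval of 26.2 to 33.3 CPM, the log2 fold change was 0.20 (edgeR's adjusted p = 0.999). Without CD73 KO replicate 1, which had the highest Tet2, it was 0.27 (edgeR's adjusted p = 0.700). Without WT replicate 3 it was 0.56 (edgeR's adjusted p = 0.293). The sign was the same in all 14 alternatives, and adjusted p ran from 0.249 to 0.999. Nearest to Tet2 in profile were Atcay, Elk4 and Arhgef39 (0.07 to 0.08).

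Tet3, the other abundant eraser (chr6:83362373-83459084, ENSMUSG00000034832), was at 64.1, 69.0 and 63.9 CPM for CD73 KO and at 68.6, 46.1 and 65.3 CPM for WT. Apart from the library labelled WT replicate 2, all libraries lay between 63.9 and 69.0 CPM. Its log2 fold change was 0.13 ± 0.15 (SE, edgeR's adjusted p = 0.797), with a 95% interval from 0.873-fold to 1.37-fold, and it turned to -0.033 without that library. The same library had the lowest Tcf7 of the 6, at 133 CPM against 210 to 374 CPM in the others. Tcf7 encodes the factor of stem-like T cells. It also had the highest Gzmb, a granule protease, at 4021 CPM against 1408 to 2382 CPM, and the highest Havcr2, the inhibitory receptor TIM-3, at 49.5 CPM against 6.25 to 22.8 CPM, a gene named after its values were seen. The part of these differences in the Tet2 and Tet3 values was not tested. Gng12, Plscr4 and Gpt were nearest to Tet3 in profile (0.06 to 0.07).

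Tet1, best known from embryonic stem cells and the germline (chr10:62804570-62908996, ENSMUSG00000047146), was close to the limit of what these libraries can resolve. Its counts were 60, 41 and 16 in CD73 KO and 48, 23 and 13 in WT. That is 3.19, 2.70 and 1.54 CPM against 3.73, 2.45 and 1.85 CPM. In both genotypes the library of smallest total had the lowest level. Its log2 fold change was -0.12 ± 0.36 (SE, edgeR's adjusted p = 0.934), and the 95% interval from 0.533-fold to 1.59-fold was the widest of the 7. Its sign turned without CD73 KO replicate 3 (0.10) or WT replicate 1 (0.22). Atp2b4, Syne3 and Itih5 were nearest in profile (0.12 to 0.17).

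**Figure D3:**
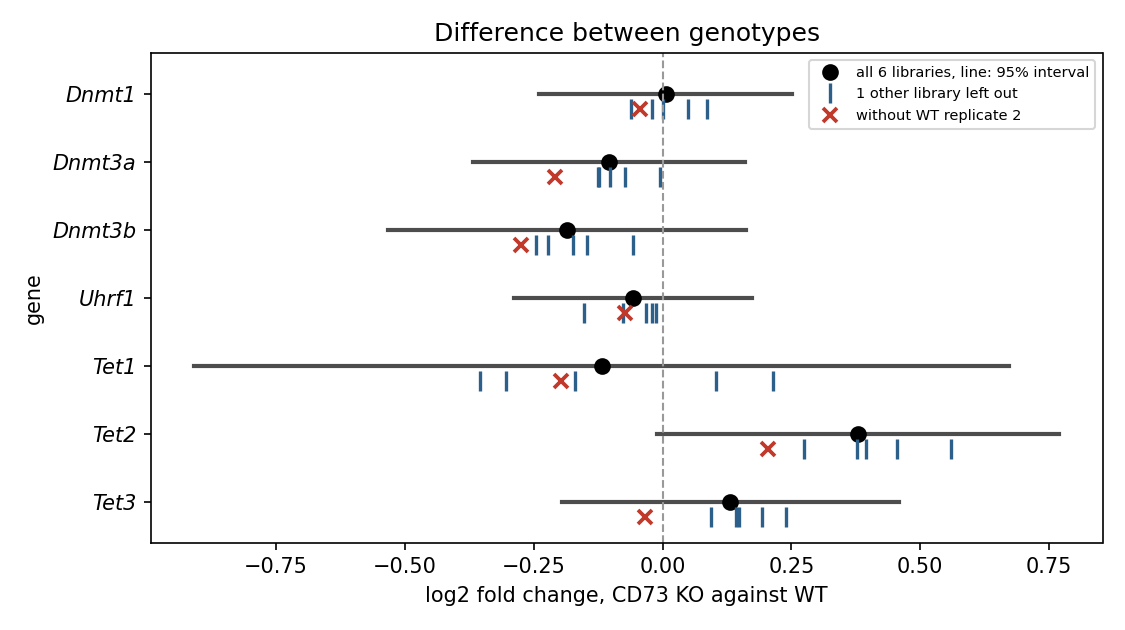
Log2 fold change of each gene, CD73 KO against WT, as a black point with its 95% interval, and below it the values with 1 library left out (blue ticks, with a red cross for the fit without the library labelled WT replicate 2). All 7 intervals include 0, Tet1 has the widest, and Tet2 moves from 0.38 to 0.20 at the red cross.

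Between genes, levels were compared per kilobase of merged exons (GENCODE M21), since a longer transcript collects more reads. In CPM per kilobase over the 6 libraries, Uhrf1 was highest at 131 ± 9.23, followed by Dnmt1 at 81.4 ± 6.60, Dnmt3a at 8.74 ± 0.895, Dnmt3b at 3.97 ± 0.511, Tet3 at 3.76 ± 0.509, Tet2 at 2.67 ± 0.573 and Tet1 at 0.167 ± 0.0529 (SD, n = 6). Uhrf1 was above Dnmt1, Dnmt1 above Dnmt3a, Dnmt3a above Dnmt3b, Tet3 above Tet2 and Tet2 above Tet1 in 6 of 6 libraries. Dnmt3b and Tet3 lay within each other's spread over the 6 libraries. With merged exons their order differed between the genotypes, which was not among the planned results. In CPM per kilobase, Dnmt3b was below Tet3 in all 3 CD73 KO libraries (3.50 against 3.84, 4.03 against 4.13 and 3.65 against 3.83) and above it in all 3 WT libraries (4.93 against 4.11, 3.73 against 2.76 and 4.01 against 3.91). This difference was not tested, and several of the gaps are small. The WT libraries include the library labelled WT replicate 2, whose label is in doubt. Neither gene differed between genotypes by the test (edgeR's adjusted p = 0.720 for Dnmt3b and 0.797 for Tet3). With the length of the longest transcript in place of merged exons, Dnmt3b went from rank 4 to rank 6, below Tet3 and Tet2. It was then above Tet3 in 1 of 6 libraries, so their order no longer parted the genotypes. Which transcripts the reads came from is not known.

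**Figure D4:**
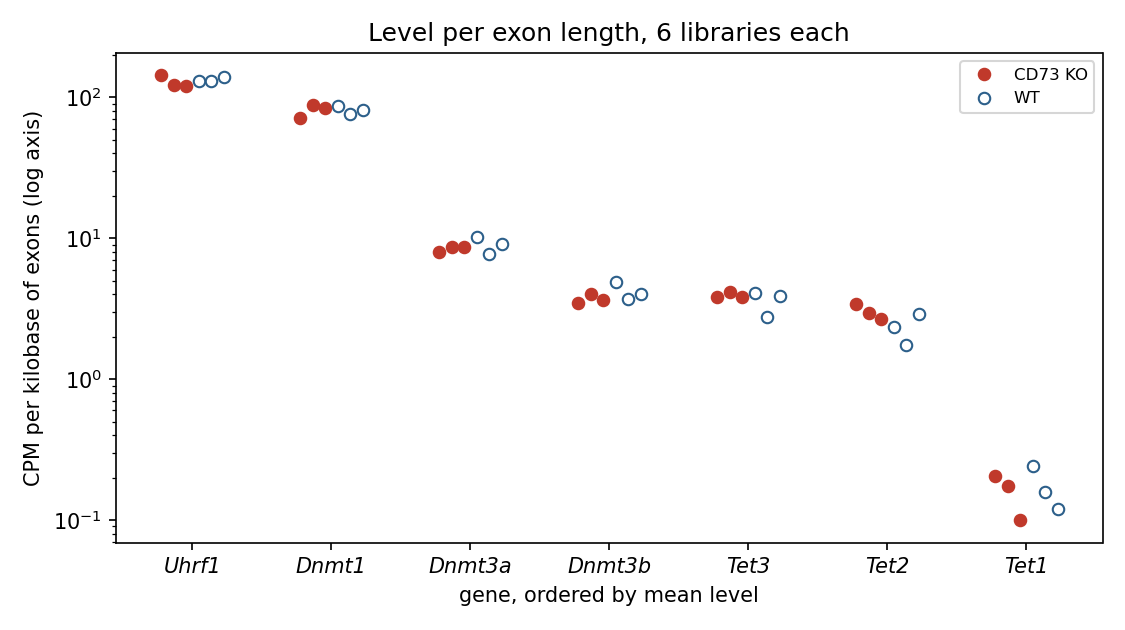
CPM per kilobase of merged exons on a log axis, with 6 libraries for each gene (filled red for CD73 KO, open blue for WT) and genes ordered by their mean. Uhrf1 and Dnmt1 stand at 131 and 81.4, the points of Dnmt3b and Tet3 overlap, and Tet1 is lowest at 0.167.

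Shares within each family overlapped between genotypes for all genes but Dnmt3b. Dnmt1 made up 85.1% to 87.5% of the summed length-scaled level of the 3 methyltransferase genes in every library, Dnmt3a 8.53% to 10.1% and Dnmt3b 3.78% to 4.84%. The Dnmt3b share was 4.21%, 3.96% and 3.78% in CD73 KO replicates 1 to 3 and 4.84%, 4.25% and 4.26% in WT replicates 1 to 3, so all CD73 KO values lay below all WT values, the nearest of them by little. The value of 4.25% is from the library labelled WT replicate 2, whose label is in doubt. Among the levels of all tested genes, 15.2% were without overlap between groups. No test was made of the Dnmt3b share. Among the Tet genes, Tet3 took 51.5% to 61.5%, Tet2 34.9% to 45.7% and Tet1 1.51% to 3.61%. The log2 ratio of the summed Tet level to the summed methyltransferase level was -3.72 ± 0.21 for CD73 KO and -3.97 ± 0.24 in WT (SD, n = 3), and the groups overlapped. Their difference of 0.26 was 0.13 without the library labelled WT replicate 2, which had the lowest ratio at -4.23, and 0.14 without CD73 KO replicate 1, which had the highest at -3.48. The log2 ratio of Dnmt1 to the sum of Dnmt3a and Dnmt3b was 2.74 ± 0.09 in CD73 KO and 2.62 ± 0.11 in WT (SD, n = 3), again with overlap. No p is given for these sums.

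Genes that work with the writers and erasers were read from lists, and edgeR's adjusted p passed for 0 of them in either direction. Partners of methylation (proteins that recruit or help the methyltransferases and UHRF1, and histone methyltransferases that guide them) had 14 of 15 members tested, 0 at an unadjusted p under 0.05 and a median log2 fold change of -0.02. Among them were Zbtb24 at 0.22 ± 0.16, Nsd1, a histone H3K36 methyltransferase, at 0.17 ± 0.13 and Setd2, another such enzyme, at 0.24 ± 0.18 (SE, log2). Dnmt3l, the germline cofactor of DNMT3A, was listed at 0 in all 6 libraries. The DNA replication list, in whose company Dnmt1 and Uhrf1 work, had 25 of 25 tested, 22 below and 3 above 0, a median of -0.05 and 0 at an unadjusted p under 0.05. Its summed level was 9486 to 10530 CPM for CD73 KO and 9759 to 10384 CPM for WT, so that WT lay within the CD73 KO range. Its members of smallest p were Top2a, a topoisomerase (0.18 ± 0.11), Rrm1, a ribonucleotide reductase subunit (-0.17 ± 0.11), and Gins2, a part of the replicative helicase (-0.17 ± 0.11; SE, log2).

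Base excision genes, which remove the oxidised bases that TET enzymes leave, had 16 of 17 tested. At an unadjusted p under 0.05, 1 was higher and 1 lower (12.5%, against 9.64% of all tested genes). Without the library labelled WT replicate 2 it was 0. That fit, also given for the lists below, had 565 of 12599 tested genes under this threshold, against 1180 of 12242 with all 6 libraries. Base excision also had 0 without WT replicate 1, WT replicate 3 or CD73 KO replicate 2. Of the 16 tested base excision genes, 8 were above and 8 below 0, with a median log2 fold change of 0.01. The summed level of the list was 741 to 749 CPM for CD73 KO and 785 to 799 CPM for WT, without overlap. Abundant genes such as Parp1 weigh most in this sum. Neil3, a DNA glycosylase, was at 64.2 ± 4.37 CPM for CD73 KO and 53.5 ± 2.11 CPM for WT. Ung, which removes uracil from DNA, was at 42.1 ± 1.24 and 50.7 ± 1.72 CPM, and Parp1, a sensor of DNA breaks, at 253 ± 13.2 and 286 ± 3.07 CPM (SD, n = 3). None of these 3, picked by smallest p, overlapped between groups, and their adjusted p in edgeR was 0.500, 0.492 and 0.571. Of the 16 tested genes, 1 was higher and 3 were lower without overlap. Over all tested genes it was 7.56% higher and 7.61% lower. The glycosylase Tdg, which acts directly on the products of TET enzymes, had a log2 fold change of -0.14 ± 0.12 (SE) and was named after its value was seen.

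The list of methylated CpG readers, their family members and corepressors had 11 of 12 tested, with 8 above 0 and a median log2 fold change of 0.14. Not every listed protein need bind methylated CpG itself. At an unadjusted p under 0.05, 2 were higher (18.2%, against 5.75% of all tested genes higher). These were Zbtb4, at 12.5 ± 3.59 CPM for CD73 KO and 8.19 ± 1.32 CPM for WT, and Mbd5, at 10.1 ± 1.99 and 7.11 ± 0.252 CPM (SD, n = 3). Their adjusted p in edgeR was 0.475 and 0.492. With the library labelled WT replicate 2 or CD73 KO replicate 2 left out, 0 of the list had an unadjusted p under 0.05. Gatad2b, a subunit of a corepressor complex, had a log2 fold change of 0.25 ± 0.14 (SE). Partners of TET proteins had 6 of 7 tested. With WT replicate 1 or the library labelled WT replicate 2 left out, 0 had an unadjusted p under 0.05. With all 6 libraries 1 was lower (16.7%, against 3.89% of all tested genes lower). This gene, Ddb1, a subunit of a ubiquitin ligase, was at 551 ± 25.6 CPM for CD73 KO and 668 ± 27.7 CPM for WT without overlap (SD, n = 3; edgeR's adjusted p = 0.403). Ogt, the enzyme that attaches GlcNAc to proteins, had a log2 fold change of 0.33 ± 0.23 and Cxxc5 one of 0.36 ± 0.30 (SE).

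Among the enzymes that supply the methyl donor and the TET cofactors, 0 passed edgeR's adjusted threshold. Over all tested genes, 5834 of 12242 had a log2 fold change below 0, the median was 0.01, and 3.89% were lower at an unadjusted p under 0.05. In the cycle of S-adenosylmethionine 9 of 11 genes were tested, 6 of them below 0, and 2 were lower at an unadjusted p under 0.05 (22.2%). With the library labelled WT replicate 2 left out, 1 gene in either direction passed that threshold. The median log2 fold change of the 9 was -0.11, and their summed level was 807 to 869 CPM for CD73 KO and 884 to 961 CPM for WT, without overlap. Ahcy, which clears the by-product of methylation, was at 142 ± 5.45 CPM for CD73 KO and 179.5 ± 9.27 CPM for WT (edgeR's adjusted p = 0.351), and Mtap, which salvages methionine, at 70.3 ± 3.26 and 86.1 ± 5.94 CPM (SD, n = 3; edgeR's adjusted p = 0.439). Mtr, methionine synthase, had a log2 fold change of -0.16 ± 0.12 (SE). Mat2a, which makes S-adenosylmethionine in T cells, had a log2 fold change of 0.01 ± 0.13 (SE) and was named after its value was seen.

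In the list around 2-oxoglutarate, the TET cosubstrate, the acids that compete with it and the uptake of ascorbate, 14 of 15 genes were tested, 12 of them below 0, with a median log2 fold change of -0.13. At an unadjusted p under 0.05 it was 3 genes lower (21.4%, against 3.89% of all tested genes), and 1 in either direction without the library labelled WT replicate 2. They were Idh3a, a subunit of the enzyme that makes 2-oxoglutarate, at 145 ± 6.15 CPM for CD73 KO and 179.6 ± 5.92 CPM for WT, and the succinate dehydrogenase subunits Sdhd, at 171 ± 1.37 and 208 ± 11.4 CPM, and Sdhc, at 79.9 ± 5.44 and 95.6 ± 2.68 CPM (SD, n = 3). Their adjusted p in edgeR was 0.375, 0.405 and 0.487. The summed level of the list was 1602 to 1678 CPM for CD73 KO and 1777 to 1850 CPM for WT, without overlap. The sums of the base excision and S-adenosylmethionine lists did not overlap either, though 8 base excision genes were above and 8 below 0. How often sums over other sets of genes are without overlap was not counted. Several members of the list around 2-oxoglutarate belong to mitochondrial respiration in general.

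**Figure D5:**
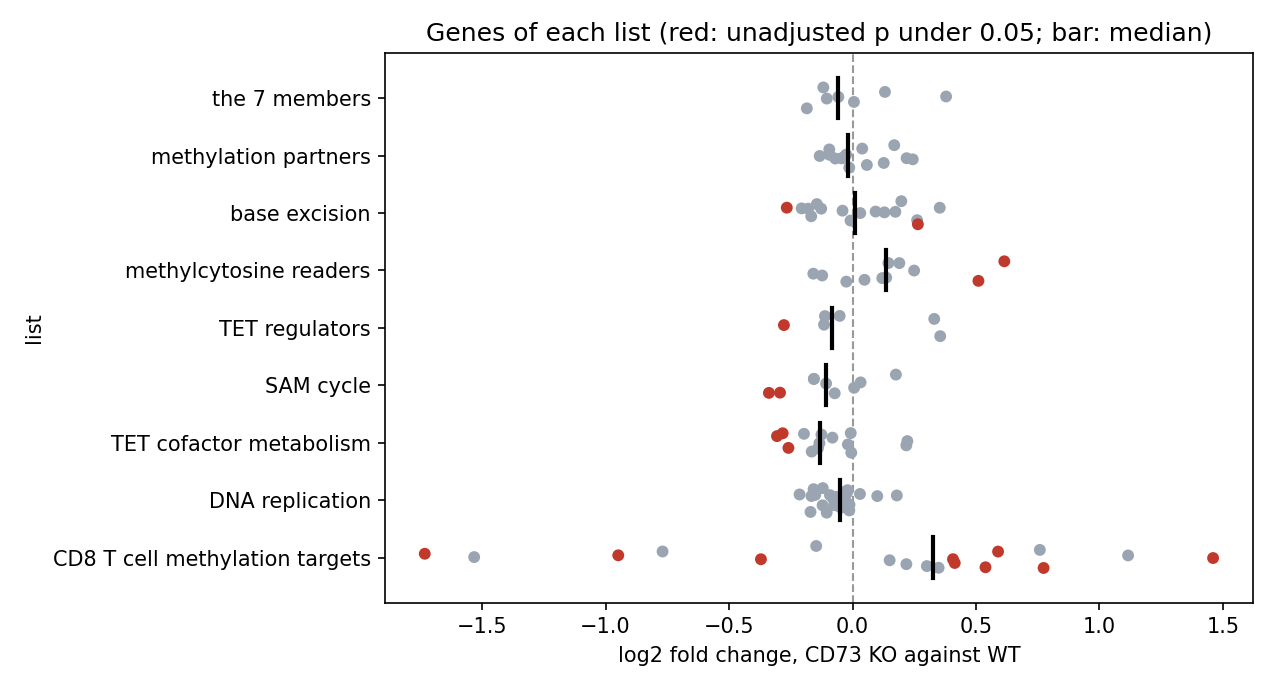
Log2 fold change, CD73 KO against WT, of each tested gene in the 7 and in 8 lists, with a black bar at each median and red points for an unadjusted p under 0.05. The writers, erasers, their partners and the replication genes show no red point, and the list of CD8 T cell methylation targets spreads most widely, from -1.73 to 1.46.

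Most of the listed transcripts that stay silent through promoter methylation in somatic cells were at or near the floor in both genotypes. Of 16 germline genes, 12 had at most 3 counts in every library, and 9 of these were listed at 0 in all 6. Brdt, with 24 to 73 counts per library, and Piwil2, with 6 to 43, alone had enough counts to be tested. Their log2 fold changes were 0.29 ± 0.36 and 0.19 ± 0.39 (SE, edgeR's adjusted p = 0.820 and 0.896). The summed level of the list was 4.61 to 7.25 CPM for CD73 KO and 5.20 to 6.54 CPM for WT.

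The last list held genes whose DNA methylation is known to differ between states of CD8 T cells. Of 18 genes, all tested, 6 were higher and 3 lower at an unadjusted p under 0.05 (50%, against 9.64% of all tested genes, 5.75% higher and 3.89% lower), and 6 in all without the library labelled WT replicate 2. None passed edgeR's adjusted threshold, whereas DESeq2 called 3. The 3 were Tcf7 at a log2 fold change of 0.77 ± 0.20, Klf2, a factor of quiescent cells, at 1.46 ± 0.37 and Gzmb at -0.95 ± 0.22 (SE in edgeR, edgeR's adjusted p = 0.319, 0.326 and 0.287). These genes were known from earlier results of these data to stand far from 0, so their number is not independent evidence, and no test set them against the 7 enzymes. DNA methylation itself was not measured in these samples.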

How the data were processed

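The authors deposited whole-number read counts for each gene, and all 6 columns matched a sample by the labels. The submitters' processing notes name fastp, HISAT2, featureCounts and the mm10 build. No version, annotation release or strand setting is given in the sources used here, so reads of antisense partners cannot be told apart. Those partners of Dnmt3a and Tet2 that share exon bases with them had at most 4 counts. A symbol was found for 49326 of 49671 rows.

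Genes were kept with filterByExpr (minimum count 10, minimum total 15). Genotypes were compared with edgeR 4.0.16 (quasi-likelihood F-test, TMM factors, robust legacy fit) in R 4.3.3, unpaired, with Benjamini-Hochberg adjustment over all 12242 tested genes and a threshold of 0.05. The standard error is the size of the log2 fold change divided by the square root of F, and 95% intervals use the t quantile of the fit. The script was tested on simulated data. DESeq2 1.42.0 and limma 3.58.1 (voom) were alternatives. Coordinates and lengths come from GENCODE M21 (GRCm38, the assembly of mm10). CPM uses deposited totals and TMM factors. Likeness was taken among tested, named genes whose mean reached 5 CPM, from log2 CPM with a prior count of 2. Poisson intervals and floors cover counting error only. Named genes were the 7, Nt5e, the 3 of smallest p in each list, the 3 nearest in profile, and cell markers. Members and lists were chosen with earlier results of these data known.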

Additional observations from a re-analysis of the deposited data

How the results depend on the processing

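The 14 alternatives were each library left out, the replicate block, thinning to 6934150 counts, DESeq2, limma-voom, RLE factors or plain totals for TMM, and a filter of 1 CPM in 3 libraries or none. In all 14, 0 of the 7 genes and 0 of the genes in 8 of the 9 lists passed. CD8 T cell methylation targets went from 0 to 5 calls without a filter and 3 with DESeq2. Over all genes, calls went from 7 to 298 without a filter and 99 with DESeq2, and the cause was not tested. Leaving out single libraries gave 4 to 8 calls over all genes. Tet2 reached an unadjusted p under 0.05 in 5 of the 14, which were no filter, limma-voom, the replicate block and the fits without CD73 KO replicate 3 or WT replicate 3.

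The log2 fold change of Dnmt1, 0.01 with all 6 libraries, turned to -0.00027 with DESeq2 and -0.00086 with limma-voom. With single libraries left out it ran from -0.061 to 0.086 for Dnmt1, -0.21 to -0.01 for Dnmt3a, -0.27 to -0.06 for Dnmt3b, -0.15 to -0.01 for Uhrf1, -0.35 to 0.22 for Tet1, 0.20 to 0.56 for Tet2 and -0.033 to 0.24 for Tet3. The cause of these turns of sign was not tested beyond the libraries named in the results.

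Correlations of same-numbered deviations were 0.15, -0.17 and 0.01, and those of unlike numbers ran from -0.32 to 0.36. So few values cannot tell whether equal numbers share an animal or a day. With the replicate block 5 genes were called over all genes and 0 of the 7, with Tet2 at 0.40 (edgeR's adjusted p = 0.489), and not every sample correlated best with its own number. Depth limits Tet1 most, with 13 to 60 counts per library.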
